A study of Mus musculus with 16 samples.

Results

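The genes described here are 33 genes of cholesterol and fatty acid synthesis, measured in primary podocytes. They were chosen as named genes of these routes, with earlier results of these data known, and fall into 5 regulators, 19 genes of the sterol arm and 9 genes of the fatty acid arm. A probe was matched to 32 of them through the RefSeq transcript that the array assigns to it, and no probe was matched to Acat2, the cytosolic thiolase that supplies acetoacetyl-CoA, so Acat2 was not measured. All 32 passed the filter on dim probes and were well above background on all 16 arrays, so the filter removed no matched member. They are 32 of 14094 genes tested.

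Podocytes are the epithelial cells that wrap the capillaries of the kidney glomerulus. Tsc2 encodes tuberin, an inhibitor of the kinase complex mTORC1, and rapamycin is an inhibitor of that complex. Total RNA came from cultures grown out of bead-isolated glomeruli of male Jcl:ICR mice, in medium with serum. The 4 groups, of 4 arrays each, were Tsc2Δpodocyte and Tsc2flox/flox podocytes from untreated mice aged 4 weeks, and Tsc2Δpodocyte and Tsc2flox/flox podocytes from mice aged 5 weeks, 1 week after rapamycin treatment. Tsc2Δpodocyte mice carry the floxed alleles, in which exons of Tsc2 are flanked by loxP sites, together with a Cre transgene driven by a podocyte promoter. Tsc2flox/flox mice carry the floxed alleles alone, so the Cre transgene and the deletion differ together between the genotypes. Nothing given states that the 4 samples of a group came from separate mice, so the p-values rest on scatter among 4 samples that could be technical. The treated groups differ from the untreated ones in drug, age and slide together. Rapamycin was injected into the mice, and the medium described for the cultures names no rapamycin. Below, "with rapamycin" and "treated" refer to treatment of the mouse. The questions are how the genotypes differ in these genes without and with rapamycin, and whether the sterol and fatty acid arms do so to a like degree.

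Cells make cholesterol from acetyl-CoA through mevalonate, squalene and lanosterol, and make fatty acids from the same acetyl-CoA through malonyl-CoA, elongation and desaturation. Both routes are controlled by the SREBP transcription factors, encoded by Srebf1 and Srebf2. These are held in the endoplasmic reticulum by SCAP and the INSIG proteins when sterols are plentiful, and are carried to the Golgi and cleaved when sterols are scarce. SREBP-2 is known mainly for the sterol genes and SREBP-1c for the fatty acid genes. mTORC1 is a known activator of SREBP processing, and podocytes are known to be sensitive to cholesterol load.

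SREBPs bind sterol regulatory elements and often work beside the factor NF-Y, which binds CCAAT. RefSeq promoter windows (build GRCm38.p6) were given for 26 of the 33 members, as 34 windows. The 250 bases before the start were searched on both strands for TCACNCCAC, the core of a sterol regulatory element, for the E-box CACGTG, for CCAAT and for the GC box GGGCGG, and no 2 different motifs overlapped in a member. CCAAT was in 61.8% of the member windows against 33.8% of all 32851 windows. It was in 14 of 18 windows of the sterol arm, covering 14 of 15 genes, and in 2 of 6 windows of the fatty acid arm. GGGCGG was in 73.5% of member windows against 32.7% of all, and CACGTG in 14.7% against 6.02%. TCACNCCAC was in 1 member window, that of Hmgcs1, and in 1.05% of all windows. All windows were not matched to the members in base composition, and a match in letters is not a binding site. The 5 windows printed are Hmgcs1 for its sterol element, at chr13:119690101-119690350 (plus strand), Insig1 as the regulator with the largest genotype difference, at chr5:28071162-28071411 (plus strand), Cyp51 and Msmo1 as later sterol genes, at chr5:4104698-4104947 (minus strand) and chr8:64733579-64733828 (minus strand), and Acss2 of the fatty acid arm, at chr2:155517793-155518042 (plus strand). Each runs 5′ to 3′ towards the start, with TCACNCCAC, CACGTG and CCAAT (or ATTGG, its other strand) in capitals.
Hmgcs1: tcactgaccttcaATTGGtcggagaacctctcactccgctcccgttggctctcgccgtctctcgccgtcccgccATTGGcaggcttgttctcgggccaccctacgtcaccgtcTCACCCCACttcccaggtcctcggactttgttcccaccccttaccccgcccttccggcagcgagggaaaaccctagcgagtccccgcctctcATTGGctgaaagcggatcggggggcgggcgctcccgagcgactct
Insig1: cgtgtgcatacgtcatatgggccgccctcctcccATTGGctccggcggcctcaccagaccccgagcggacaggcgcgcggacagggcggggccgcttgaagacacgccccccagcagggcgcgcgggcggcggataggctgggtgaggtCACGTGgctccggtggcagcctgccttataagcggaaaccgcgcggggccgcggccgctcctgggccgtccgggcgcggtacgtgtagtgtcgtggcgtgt
Cyp51: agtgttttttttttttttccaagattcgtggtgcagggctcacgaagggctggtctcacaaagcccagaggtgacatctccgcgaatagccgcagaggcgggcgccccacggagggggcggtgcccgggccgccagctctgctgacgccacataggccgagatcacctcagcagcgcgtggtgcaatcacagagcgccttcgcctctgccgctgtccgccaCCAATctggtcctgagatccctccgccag
Msmo1: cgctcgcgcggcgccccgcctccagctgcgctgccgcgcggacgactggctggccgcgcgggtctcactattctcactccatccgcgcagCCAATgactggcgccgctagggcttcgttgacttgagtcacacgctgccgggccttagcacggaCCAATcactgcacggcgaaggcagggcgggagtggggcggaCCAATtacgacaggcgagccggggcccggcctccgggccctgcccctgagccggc
Acss2: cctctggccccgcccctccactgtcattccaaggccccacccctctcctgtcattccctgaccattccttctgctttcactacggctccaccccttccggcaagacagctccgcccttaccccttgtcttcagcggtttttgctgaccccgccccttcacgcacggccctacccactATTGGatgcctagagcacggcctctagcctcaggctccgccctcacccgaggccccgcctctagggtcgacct
Hmgcs1 and Msmo1 hold 3 CCAAT letters each and the other windows printed hold 1 each. In Hmgcs1 the sterol element lies 137 bases before the start, and in Insig1 the E-box lies 101 bases before it.

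Values are log2 of the background-subtracted Cy3 signal minus log2 of the array's 75th percentile, called the normalized log2 signal. It compares 1 gene between arrays and not 1 gene with another. Tsc2 read 1.93 to 2.31 on the untreated Tsc2Δpodocyte arrays and 2.95 to 3.71 on the Tsc2flox/flox arrays, and 2.05 to 2.73 against 2.83 to 3.65 with rapamycin, so it was lower on each Tsc2Δpodocyte array of both comparisons. Whether its probe lies in the deleted part was not determined. The podocyte markers Wt1, Synpo and Podxl were well above background on all 16 arrays, and Nphs1 on all but 1 untreated Tsc2Δpodocyte array. Nphs1 was dim, at -5.08 to -3.87 on untreated Tsc2Δpodocyte arrays and -4.36 to -2.64 on untreated Tsc2flox/flox arrays. With rapamycin it read -4.26 to -2.81 against -3.78 to -0.87. The lowest signal that counted as well above background was -5.77 to -4.45, depending on the array. Adipoq, Plin1 and Cidec, which define adipocytes, were well above background on no array. Of 10 adipocyte genes listed, however, 5 passed the filter on dim probes, among them Lep, Retn, Pparg and Adrb3. Adipoq, Plin1, Cidec, Cfd and Lipe did not pass it. Of the markers of other cell types that a glomerular culture can hold, 2 of 13 macrophage and leukocyte genes and 3 of 11 mesangial and smooth muscle genes rose between the untreated genotypes, and 3 of 9 parietal epithelial, 1 of 6 tubule and 1 of 5 adipocyte genes fell. With rapamycin these counts were 0 and 1 risen, and 2, 1 and 0 fallen. Of all genes 10.3% rose and 9.2% fell untreated, and 6.2% rose and 4.97% fell with rapamycin. With lists this short several of these counts are near those shares. Untreated, 12 of 13 macrophage genes lay above 0 (median log2 fold change 0.64) and 10 of 11 mesangial genes did (0.55). For parietal, endothelial and podocyte genes this was 0 of 9 (-0.70), 1 of 12 (-0.33) and 10 of 16 (0.11). With rapamycin it was 4 of 13 macrophage (-0.06), 6 of 11 mesangial (0.14) and 1 of 9 parietal genes (-0.58). The genotype difference with rapamycin minus that without lay above 0 for 0 of 13 macrophage genes (median -0.80). Of 12 endothelial genes 0 passed in either comparison (limma). Of 16 podocyte genes 2 rose in each, Plce1 (1.80 untreated, adjusted p = 0.00356, and 1.65 with rapamycin, adjusted p = 0.0113, log2 fold changes), Vegfa untreated (1.04, adjusted p = 0.00398) and Podxl with rapamycin (1.18, adjusted p = 0.0372). The part of these cells in the results was not tested, and in bulk samples fewer cells of a type and less RNA per cell cannot be told apart.

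The summed signal of the 13 macrophage genes, in units of the array's 75th percentile, was 14.0 to 21.1 on untreated Tsc2Δpodocyte arrays against 10.1 to 19.9 on Tsc2flox/flox arrays, and 14.4 to 20.1 against 13.6 to 21.7 with rapamycin. For the 11 mesangial genes it was 873 to 1180 against 716 to 971, and 734 to 881 against 638 to 818. For the 9 parietal genes it was 41.2 to 136 against 98.7 to 186, and 94.7 to 327 against 119 to 382. For the 16 podocyte genes it was 241 to 399 against 205 to 259, and 241 to 393 against 243 to 271. All 4 sums overlapped between the genotypes in both comparisons.

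Many sterol genes rose in Tsc2Δpodocyte podocytes without and with rapamycin, and 4 of 9 fatty acid genes rose without it and 1 with it. Between the untreated genotypes 15 of 32 members rose at an adjusted p under 0.05 (limma, Benjamini-Hochberg over all 27579 tested probes), 0 fell and 17 did not pass. Of all 14094 genes 10.3% rose and 9.2% fell in that comparison. The median log2 fold change of the members was 0.43, against -0.01 over all genes, and 31 of 32 lay above 0 against 48.7% of all genes. A fold of at least 1.5 was also reached by 8 members, against 6.18% of all genes. In podocytes from rapamycin-treated mice 17 of 32 rose, 0 fell and 15 did not pass, against 6.2% of all genes that rose and 4.97% that fell. Here the median was 0.50, against 0.01 over all genes, all 32 members lay above 0 against 51.1% of all genes, and 10 reached the fold of 1.5 against 2.97% of all genes. On 16 members every untreated Tsc2Δpodocyte array read above every Tsc2flox/flox array, and on 21 with rapamycin, against 13.5% and 10.7% of all genes. The lists were drawn up with earlier results of these data known, so the counts are descriptions.

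The counts depended on the fit. Between the untreated genotypes the count of 15 was 9 when only the 8 arrays compared were fitted and 6 under the methods' t-test with the same adjustment. With rapamycin the count of 17 was 11 without Tsc2flox/flox replicate 4 and 11 with no filter on dim probes.

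**Figure D1:**
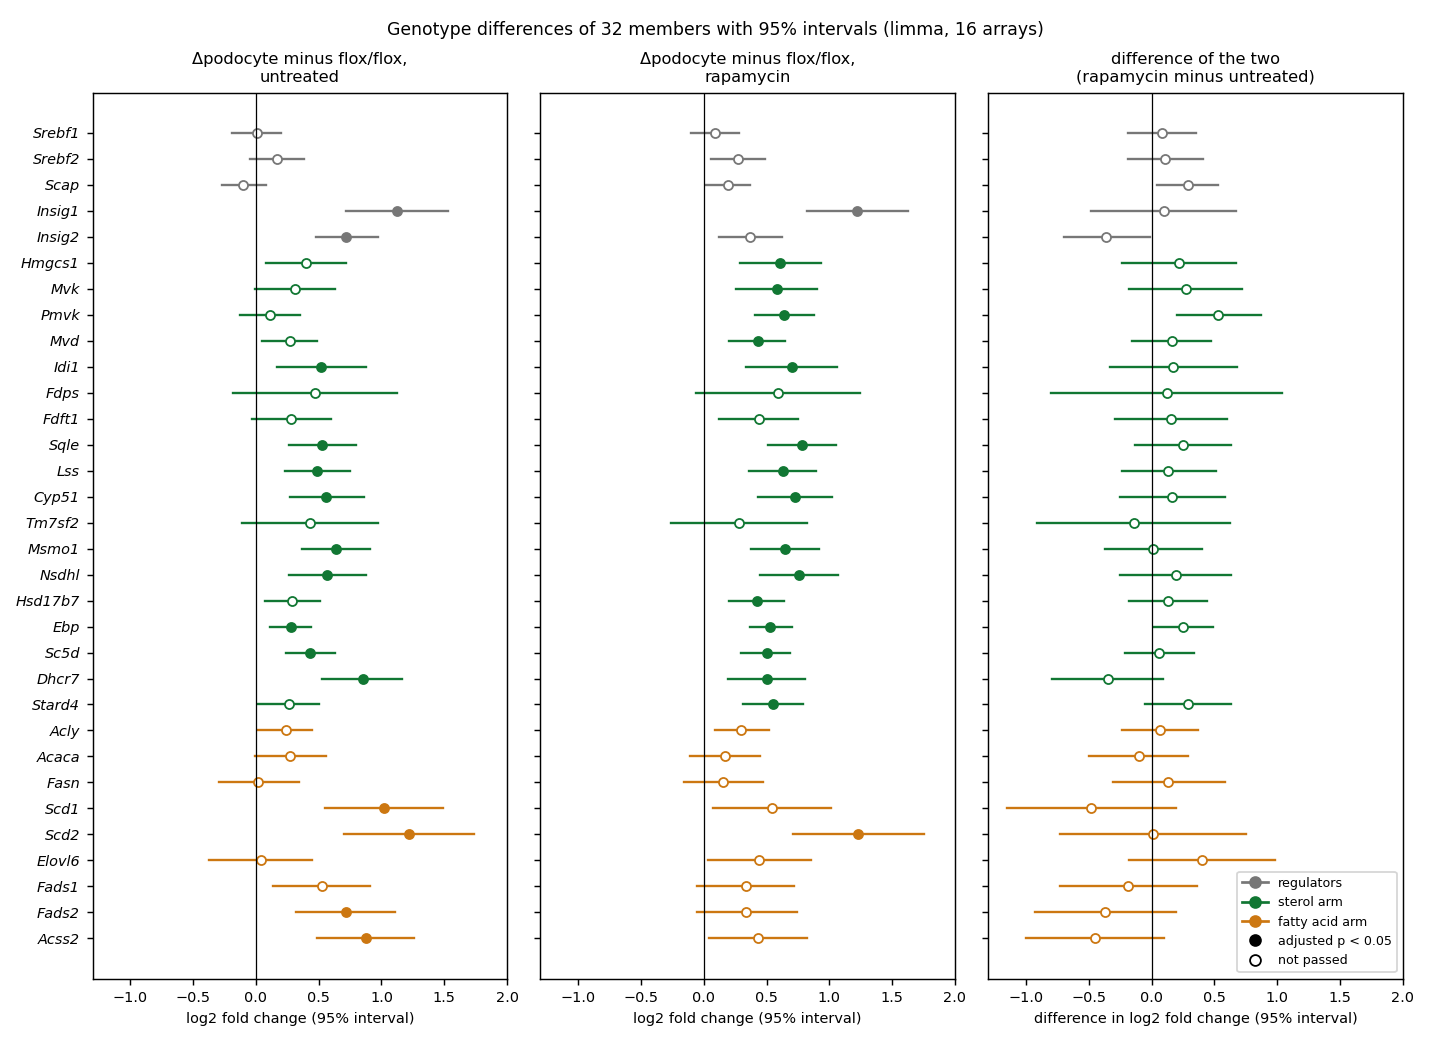
Log2 fold changes of the 32 measured members with 95% intervals, by limma over 16 arrays, in the untreated comparison (left), the comparison with rapamycin (middle) and their difference (right). Grey marks regulators, green the sterol arm and orange the fatty acid arm, and filled points passed at an adjusted p under 0.05. Filled points number 15, 17 and 0 from left to right, and all but Scap lie to the right of 0 in the left panel.

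Among the regulators, the INSIG genes rose and the SREBP genes did not pass. Insig1, which retains SCAP in the endoplasmic reticulum and is itself a known SREBP target, read -1.78, -1.29, -2.17 and -1.67 on the 4 untreated Tsc2Δpodocyte arrays and -3.14, -2.44, -2.71 and -3.13 on the Tsc2flox/flox arrays. With rapamycin it read -1.94, -1.79, -1.55 and -1.54 against -2.86, -2.77, -2.92 and -3.16. In neither comparison did the genotypes overlap. It rose by 1.12 on the log2 scale (standard error 0.19, adjusted p = 0.00143) untreated and by 1.22 (standard error 0.19, adjusted p = 0.00272) with rapamycin, or 2.18-fold and 2.33-fold. In a 2-sided exact permutation test p was 0.0286 for both, the smallest that 4 arrays against 4 allow.

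Insig2, the second retention protein, read 3.04, 3.51, 3.06 and 3.01 in untreated Tsc2Δpodocyte podocytes and 2.41, 2.28, 2.59 and 2.44 in Tsc2flox/flox podocytes. With rapamycin the values were 2.81, 2.57, 2.92 and 2.68 against 2.31, 2.36, 2.40 and 2.43. The groups did not overlap in either comparison, though the treated ones lay closer. The rise was 0.72 on the log2 scale untreated (standard error 0.11, adjusted p = 0.000919), and the value with rapamycin was 0.37 (standard error 0.11, adjusted p = 0.0552). This last value passed in 6 alternatives, at adjusted p between 0.0338 and 0.0479.

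Srebf1 and Srebf2 encode the transcription factors themselves. Srebf1 read 2.91, 3.09, 2.66 and 2.83 against 2.91, 2.92, 2.80 and 2.83 untreated, and 3.03, 3.09, 3.03 and 3.26 against 2.98, 2.96, 3.04 and 3.08 with rapamycin, overlapping in both. Its log2 fold change was 0.01 (95% interval -0.19 to 0.20) untreated, with a sign that turned under other scalings, and 0.09 (-0.10 to 0.28) with rapamycin. Whether the probe tells the transcripts of SREBP-1a and SREBP-1c apart was not determined. Srebf2 read -0.39, -0.24, -0.41 and -0.48 against -0.68, -0.26, -0.65 and -0.60 untreated, which overlapped. With rapamycin it read -0.25, -0.10, -0.30 and -0.28 against -0.51, -0.42, -0.46 and -0.65, with no overlap. The Srebf2 log2 fold changes were 0.17 (adjusted p = 0.259) and 0.27 (adjusted p = 0.0913), so neither passed.

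Scap encodes the escort that carries SREBPs to the Golgi. Its signal was 2.86, 3.0, 2.86 and 2.88 on untreated Tsc2Δpodocyte arrays and 3.02, 3.0, 2.91 and 3.06 on Tsc2flox/flox arrays, and 3.25, 3.37, 3.17 and 3.17 against 3.13, 3.17, 2.87 and 3.02 with rapamycin. Both pairs of groups overlapped. The log2 fold changes were -0.10 (adjusted p = 0.435) and 0.19 (adjusted p = 0.147), and the second was -0.05 under normexp background correction.

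**Figure D2:**
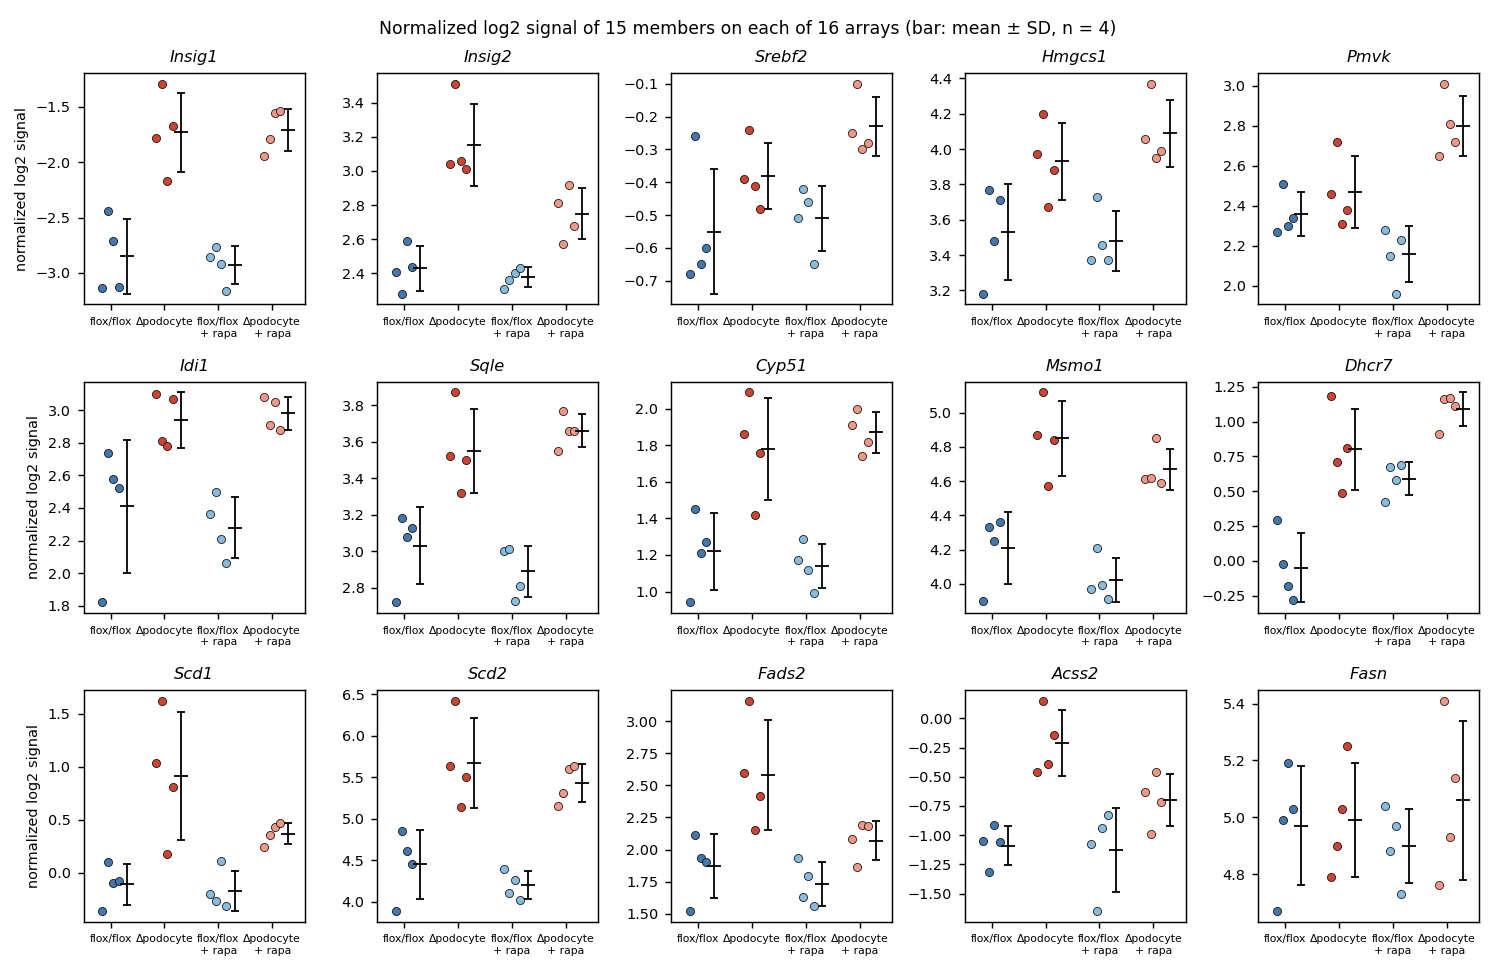
Normalized log2 signal of 15 members (vertical axes, own range for each gene) on each of 16 arrays, in Tsc2flox/flox (blue) and Tsc2Δpodocyte (red) podocytes, untreated (dark) or after rapamycin (light, "rapa"). Points are arrays, and the bar beside them is the mean ± SD (n = 4). Insig1, Sqle, Msmo1 and Scd2 show no overlap of the genotypes in either comparison, whereas Fasn overlaps in both.

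Most sterol genes from squalene onwards rose in Tsc2Δpodocyte podocytes without and with rapamycin, whereas most earlier ones passed in the comparison with rapamycin and not in the untreated one. Of 18 measured genes 9 rose untreated (median log2 fold change 0.43) and 15 rose with rapamycin (median 0.59). All 18 lay above 0 in both comparisons. Of all genes 10.3% rose untreated and 6.2% with rapamycin. The 7 genes from mevalonate to squalene held 1 riser untreated and 5 with rapamycin. The 10 genes from squalene to cholesterol held 8 and 9. The median log2 fold change was 0.31 untreated and 0.59 with rapamycin for the earlier genes. For the later ones it was 0.51 and 0.58. The interaction, the genotype difference with rapamycin minus that without, passed for 0 genes of either stretch, so a change between the comparisons was not shown. Without Tsc2flox/flox replicate 4 the sterol count with rapamycin was 9.

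In the early steps the genotypes often overlapped untreated. Hmgcs1, the cytosolic HMG-CoA synthase, read 3.97, 4.20, 3.67 and 3.88 against 3.18, 3.77, 3.48 and 3.71 untreated, and 4.06, 4.37, 3.95 and 3.99 against 3.37, 3.73, 3.46 and 3.37 with rapamycin. Only the treated groups were apart. Its log2 fold change was 0.40 (adjusted p = 0.0814) untreated, and it rose by 0.61 with rapamycin (standard error 0.15, adjusted p = 0.0203). Without either Tsc2flox/flox replicate 3 or replicate 4 of the treated arrays this rise no longer passed (adjusted p = 0.0564 and 0.0577).

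Pmvk, which adds the next phosphate to phosphomevalonate, read 2.46, 2.72, 2.31 and 2.38 against 2.27, 2.51, 2.30 and 2.34 untreated. With rapamycin the values were 2.65, 3.01, 2.81 and 2.72 against 2.28, 2.15, 1.96 and 2.23. The untreated groups overlapped almost wholly and the treated ones did not overlap. The fold changes were 0.11 on the log2 scale (adjusted p = 0.519) and 0.64 (standard error 0.11, adjusted p = 0.00455). Pmvk had the smallest interaction p among the members.

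Idi1, the isopentenyl diphosphate isomerase, read 3.1, 2.81, 2.78 and 3.07 against 1.82, 2.74, 2.58 and 2.52 untreated, and 3.08, 2.91, 3.05 and 2.88 against 2.36, 2.50, 2.21 and 2.06 with rapamycin. The genotypes stayed apart in both, though untreated by very little. It rose by 0.52 on the log2 scale untreated (standard error 0.17, adjusted p = 0.0431) and by 0.70 with rapamycin (standard error 0.17, adjusted p = 0.0184). The first call was lost without any of Tsc2Δpodocyte replicates 1, 2 and 4 or Tsc2flox/flox replicates 1 and 4, at adjusted p between 0.0613 and 0.103. Normexp background correction, no filter on dim probes and the replicate block also lost it, at adjusted p between 0.065 and 0.107. So did a fit of only the 8 arrays compared (adjusted p = 0.114) and the methods' t-test (adjusted p = 0.171). The second was lost without Tsc2Δpodocyte replicate 1 or Tsc2flox/flox replicate 3 or 4, at adjusted p between 0.0539 and 0.0572.

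Of the other early genes, Mvk (mevalonate kinase) and Mvd (mevalonate diphosphate decarboxylase) rose with rapamycin alone among the 2 comparisons, with log2 fold changes of 0.58 (adjusted p = 0.0244) and 0.43 (adjusted p = 0.0203). A dimmer Mvk probe gave 0.33 with rapamycin and did not pass (adjusted p = 0.215). Fdps, farnesyl diphosphate synthase, had log2 fold changes of 0.47 and 0.59 that did not pass (adjusted p = 0.299 and 0.236). It varied most within a group, from 3.09 to 4.90 on the treated Tsc2flox/flox arrays (SD 0.79). Fdft1, squalene synthase, had 0.28 and 0.44 (adjusted p = 0.194 and 0.0735).

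From squalene on, most genes rose in both comparisons. Sqle, the squalene epoxidase that opens this stretch, read 3.52, 3.87, 3.32 and 3.50 against 2.72, 3.18, 3.08 and 3.13 untreated, and 3.55, 3.77, 3.66 and 3.66 against 3.0, 3.01, 2.73 and 2.81 with rapamycin. No array of one genotype reached the range of the other. It rose by 0.53 on the log2 scale untreated (standard error 0.13, adjusted p = 0.0115) and by 0.78 with rapamycin (standard error 0.13, adjusted p = 0.00352), 1.44-fold and 1.71-fold.

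Lss, which closes the ring to lanosterol, read 1.62, 1.79, 1.34 and 1.58 against 0.70, 1.29, 1.2 and 1.17 untreated, and 1.78, 1.76, 1.76 and 1.92 against 1.13, 1.27, 1.10 and 1.21 with rapamycin. The genotypes were apart in both comparisons. The rises were 0.49 (standard error 0.12, adjusted p = 0.0140) and 0.63 (standard error 0.12, adjusted p = 0.00794) on the log2 scale. Of its other probes 1 passed in both comparisons and the dimmest gave 0.46 and 0.47 and did not pass (adjusted p = 0.121 and 0.144).

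Cyp51, the lanosterol demethylase, read 1.86, 2.09, 1.42 and 1.76 against 0.94, 1.45, 1.21 and 1.27 untreated, where replicate 3 of Tsc2Δpodocyte fell below replicate 2 of Tsc2flox/flox. With rapamycin it read 1.91, 2.00, 1.74 and 1.82 against 1.17, 1.29, 1.12 and 0.99, with no overlap. It rose by 0.56 on the log2 scale (standard error 0.14, adjusted p = 0.0123) and by 0.73 (standard error 0.14, adjusted p = 0.00699). In exact permutation tests p was 0.0571 untreated and 0.0286 with rapamycin.

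Msmo1, the sterol C4-methyl oxidase, read 4.87, 5.12, 4.57 and 4.84 against 3.90, 4.33, 4.25 and 4.36 untreated, and 4.61, 4.62, 4.85 and 4.59 against 3.97, 4.21, 3.99 and 3.91 with rapamycin. All Tsc2Δpodocyte arrays were the higher ones. Its 2 rises were close in size, 0.64 (standard error 0.13, adjusted p = 0.00398) and 0.65 (standard error 0.13, adjusted p = 0.00794) on the log2 scale.

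Nsdhl, the sterol dehydrogenase that acts with Msmo1 in removing the C4 methyl groups, read 1.08, 1.25, 0.53 and 0.81 against 0.18, 0.39, 0.46 and 0.36 untreated. After rapamycin it read 0.80, 0.90, 0.74 and 0.65 against 0.24, -0.26, 0.12 and -0.06. The untreated groups lay close but did not overlap, and the treated ones lay further apart. It rose by 0.57 (standard error 0.15, adjusted p = 0.0161) and by 0.76 (standard error 0.15, adjusted p = 0.00725). Without Tsc2Δpodocyte replicate 2 the untreated adjusted p was 0.0503.

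Dhcr7, the reductase of the last step of one route to cholesterol, read 1.18, 0.71, 0.49 and 0.81 against 0.29, -0.02, -0.18 and -0.28 untreated, and 0.91, 1.16, 1.17 and 1.11 against 0.42, 0.67, 0.58 and 0.69 with rapamycin. The genotypes did not overlap in either. It was the sterol gene with the largest untreated rise, 0.85 on the log2 scale (standard error 0.15, adjusted p = 0.00157), and rose by 0.50 with rapamycin (standard error 0.15, adjusted p = 0.0433). The call with rapamycin was lost whichever treated array was left out, at adjusted p between 0.0555 and 0.0986.

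Ebp, the sterol isomerase, and Sc5d, the sterol C5-desaturase, rose in both comparisons, Ebp by 0.28 and 0.53 (adjusted p = 0.0233 and 0.00186) and Sc5d by 0.43 and 0.50 (adjusted p = 0.00529 and 0.00591) on the log2 scale. A dimmer Ebp probe gave 0.43 untreated (adjusted p = 0.00979) and 0.27 with rapamycin (adjusted p = 0.0982). Hsd17b7, a sterol ketoreductase, gave 0.29 untreated (adjusted p = 0.0638) and rose by 0.42 with rapamycin (adjusted p = 0.0196), whereas its dimmer probe passed untreated (0.38, adjusted p = 0.0139) and not with rapamycin (0.25, adjusted p = 0.116). Tm7sf2, a sterol C14-reductase, was the only one of the 10 that passed in neither, with 0.43 and 0.28 (adjusted p = 0.257 and 0.525). Stard4, a sterol carrier outside the synthesis chain, gave 0.26 (adjusted p = 0.124) and rose by 0.55 with rapamycin (adjusted p = 0.00965). Its dimmer probe gave -0.15 and 0.30 and passed in neither.

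In the fatty acid arm the genes that rose were desaturases and Acss2, and the chain-building enzymes did not pass. Of 9 genes 4 rose untreated (median log2 fold change 0.53), against 10.3% of all genes. With rapamycin 1 rose (median 0.34), against 6.2% of all genes, so this count is near that share. All 9 lay above 0 in both comparisons. Among the 4 desaturases Scd1, Scd2, Fads1 and Fads2, 3 rose untreated and 1 with rapamycin.

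Scd2 is a stearoyl-CoA desaturase, which makes monounsaturated from saturated fatty acids. With Insig1 it had the largest fold changes of the 32 members in the main fit. The order of these 2 turned under quantile normalization (1.11 for Scd2 and 1.17 for Insig1 untreated, on the log2 scale). Under normexp background correction the untreated Insig1 value was 0.74, below those of Scd2, Scd1 (0.93) and Dhcr7 (0.82). Scd2 read 5.63, 6.42, 5.14 and 5.50 against 3.89, 4.85, 4.61 and 4.45 untreated, and 5.16, 5.31, 5.60 and 5.63 against 4.40, 4.11, 4.26 and 4.02 with rapamycin. There was no overlap between genotypes. It rose by 1.22 (standard error 0.24, adjusted p = 0.00401) and by 1.23 (standard error 0.24, adjusted p = 0.00822) on the log2 scale, 2.33-fold and 2.35-fold.

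Scd1, the second desaturase of that family measured, read 1.03, 1.62, 0.18 and 0.81 against -0.36, 0.10, -0.10 and -0.08 untreated, and 0.24, 0.36, 0.43 and 0.47 against -0.20, -0.27, 0.11 and -0.31 with rapamycin. Both pairs of groups were apart, and the untreated Tsc2Δpodocyte arrays were spread widely (SD 0.60). Scd1 rose by 1.02 on the log2 scale untreated (standard error 0.22, adjusted p = 0.00651) and gave 0.54 with rapamycin (standard error 0.22, adjusted p = 0.133).

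Fads2, the delta-6 desaturase of polyunsaturated fatty acids, read 2.60, 3.16, 2.15 and 2.42 against 1.52, 2.11, 1.93 and 1.90 untreated, without overlap, and 2.08, 1.86, 2.19 and 2.18 against 1.93, 1.63, 1.79 and 1.56 with rapamycin, with overlap. It rose by 0.72 untreated (standard error 0.18, adjusted p = 0.0166) and gave 0.34 with rapamycin (standard error 0.18, adjusted p = 0.258). Its dimmer probe gave 0.85 (adjusted p = 0.0166) and 0.72 (adjusted p = 0.0514), with an interaction of -0.13. Fads1, the delta-5 desaturase, gave 0.53 (adjusted p = 0.0569) and 0.34 (adjusted p = 0.250), neither of which passed.

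Acss2, which makes acetyl-CoA from acetate, read -0.46, 0.15, -0.39 and -0.14 against -1.05, -1.32, -0.91 and -1.06 untreated, and -0.63, -0.99, -0.46 and -0.72 against -1.08, -1.65, -0.94 and -0.83 with rapamycin. The untreated groups were apart and the treated ones overlapped. It rose by 0.88 on the log2 scale untreated (standard error 0.18, adjusted p = 0.00511) and gave 0.43 with rapamycin (standard error 0.18, adjusted p = 0.148), or 0.25 without Tsc2flox/flox replicate 2. Its dimmer probe, above background on 14 of 16 arrays, rose in both, by 0.88 and 0.71 (adjusted p = 0.00684 and 0.0324).

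The genes of palmitate synthesis and elongation passed in neither comparison. Fasn, fatty acid synthase, gave 0.02 untreated (95% interval -0.29 to 0.34) and 0.15 with rapamycin (-0.16 to 0.47). Acaca, acetyl-CoA carboxylase, gave 0.27 (-0.01 to 0.56) and 0.17 (-0.11 to 0.45), and Acly, ATP citrate lyase, gave 0.24 (0.02 to 0.45, adjusted p = 0.118) and 0.30 (0.09 to 0.52, adjusted p = 0.0709). Elovl6, the elongase of palmitate, gave 0.04 (-0.37 to 0.45) and 0.44 (0.03 to 0.85, adjusted p = 0.157). The upper bounds of these intervals lay between 0.34 and 0.85.

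Of the members, 11 rose in both comparisons, which is 73.3% of the 15 untreated risers and 64.7% of the 17 with rapamycin. All 9 sterol genes that rose untreated also rose with rapamycin, where Hmgcs1, Mvk, Pmvk, Mvd, Hsd17b7 and Stard4 joined them. Scd1, Fads2, Acss2 and Insig2 passed untreated only. Such lists do not show that the genotype difference itself changed. The interaction, the genotype difference with rapamycin minus that without, passed for 0 of 32 members and for 0.0% of all genes (limma), and for 0 members also with a trended and robust prior. At an unadjusted p under 0.05 it held 4 members, against 1042 of 14094 genes. These were Pmvk (0.53, 95% interval 0.20 to 0.87), Scap (0.29, 0.04 to 0.53), Ebp (0.25, 0.02 to 0.49) and Insig2 (-0.36, -0.70 to -0.01), on the log2 scale, with adjusted p of 0.615 or more, and the dimmer probe of Ebp gave the opposite sign (-0.16).

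The sign of the interaction is given by arm as a description. It was above 0 for 16 of 18 sterol genes (median 0.16) and for 4 of 9 fatty acid genes (median -0.10), against 51.7% of all genes. Read from each gene's dimmest tested probe it was above 0 for 12 sterol genes (median 0.09) and 4 fatty acid genes (median -0.13), and under normexp background correction for 12 and 4. Dimmer probes of Mvk (-0.06), Lss (-0.09), Msmo1 (-0.06), Hsd17b7 (-0.14) and Ebp (-0.16) gave negative values, and that of Acss2 gave -0.17. The lowest sterol value was that of Dhcr7 (-0.35, 95% interval -0.79 to 0.09) and the lowest in the fatty acid arm those of Scd1 (-0.48, -1.15 to 0.19, and -0.24 without untreated Tsc2Δpodocyte replicate 2) and Acss2 (-0.45, -1.0 to 0.10). For Scd2 it was 0.01, with an interval of -0.73 to 0.75 that is wide beside its fold change of 1.23. Under normexp background correction the interaction of Srebf2, Insig1, Sqle and Scd2 turned negative and that of Fads2 turned positive.

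Each genotype was also compared with itself across treatment. In Tsc2flox/flox podocytes 0 of 32 members passed between treated and untreated samples (limma), against 0.106% of all genes that rose and 0.0568% that fell. At an unadjusted p under 0.05 there were 5 members, against 2236 of 14094 genes. In Tsc2Δpodocyte podocytes 1 rose and 0 fell at an adjusted p under 0.05, against 1.97% and 1.53% of all genes. The riser was Scap, by 0.34 on the log2 scale (adjusted p = 0.0394), and it no longer passed whichever of the 8 arrays was left out. At an unadjusted p under 0.05 there were 7 members in Tsc2Δpodocyte podocytes, against 3406 of 14094 genes. Scap, Pmvk (0.33) and Srebf1 (0.23) were higher in treated samples. Scd1 (-0.54), Fads2 (-0.51), Acss2 (-0.49) and Insig2 (-0.41) were lower. The median was 0.08 in the sterol arm and -0.25 in the fatty acid arm. Of 12 endothelial markers 0 passed in either genotype (limma), with a median log2 fold change across treatment of -2.11 in Tsc2flox/flox and -2.08 in Tsc2Δpodocyte podocytes and values from -3.52 to 1.38. In Tsc2Δpodocyte podocytes 9 of them read lower on every treated array than on every untreated one, against 902 of 14094 genes. In Tsc2flox/flox podocytes 2 did, against 735 genes. Of 11 mesangial and smooth muscle genes 1 fell in Tsc2Δpodocyte and 0 in Tsc2flox/flox podocytes. Drug, age and slide cannot be told apart here.

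By their means, both Tsc2Δpodocyte groups lay above both Tsc2flox/flox groups for all 18 sterol genes and for 8 of 9 fatty acid genes (not Elovl6). This was also so for 3 of 5 regulators (Insig1, Insig2 and Srebf2). The share of all genes with this order was not counted. The highest group was treated Tsc2Δpodocyte for 13 sterol genes and untreated Tsc2Δpodocyte for 5. In the fatty acid arm this was 2 and 7. These 2 neighbouring Tsc2Δpodocyte groups did not differ past the threshold except for Scap, and the means of Insig1 (-1.73 ± 0.36 and -1.71 ± 0.19, SD, n = 4) and Msmo1 (4.85 ± 0.22 and 4.67 ± 0.12, SD, n = 4) lay within the larger SD of each other. Those of Insig2 (3.15 ± 0.24 and 2.75 ± 0.15, SD, n = 4) and Acss2 (-0.21 ± 0.28 and -0.70 ± 0.22, SD, n = 4) did not. Treated arrays lay wholly below untreated ones for these 2 members, and wholly above for 1, Scap.

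Within the untreated groups most members moved together from array to array. Genes other than the members were not counted in this way. Among the untreated Tsc2Δpodocyte arrays, replicate 2 was the highest for 26 of 32 members and replicate 3 the lowest for 24. Replicate 3 was lowest for 16 of 18 sterol genes. Among the untreated Tsc2flox/flox arrays, replicate 1 was the lowest for 26 members and replicate 2 the highest for 19. The median deviation of the members from their group mean was 0.23 on the log2 scale for Tsc2Δpodocyte replicate 2, -0.23 for replicate 3 and -0.21 for Tsc2flox/flox replicate 1. On treated arrays it lay between -0.10 and 0.07. The untreated count of 15 risers was 12 without Tsc2Δpodocyte replicate 2, 19 without replicate 3 and 13 without Tsc2flox/flox replicate 1. The median SD of a sterol gene was 0.22 and 0.21 in the untreated groups (Tsc2Δpodocyte and Tsc2flox/flox) and 0.12 and 0.15 in the treated ones.

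**Figure D3:**
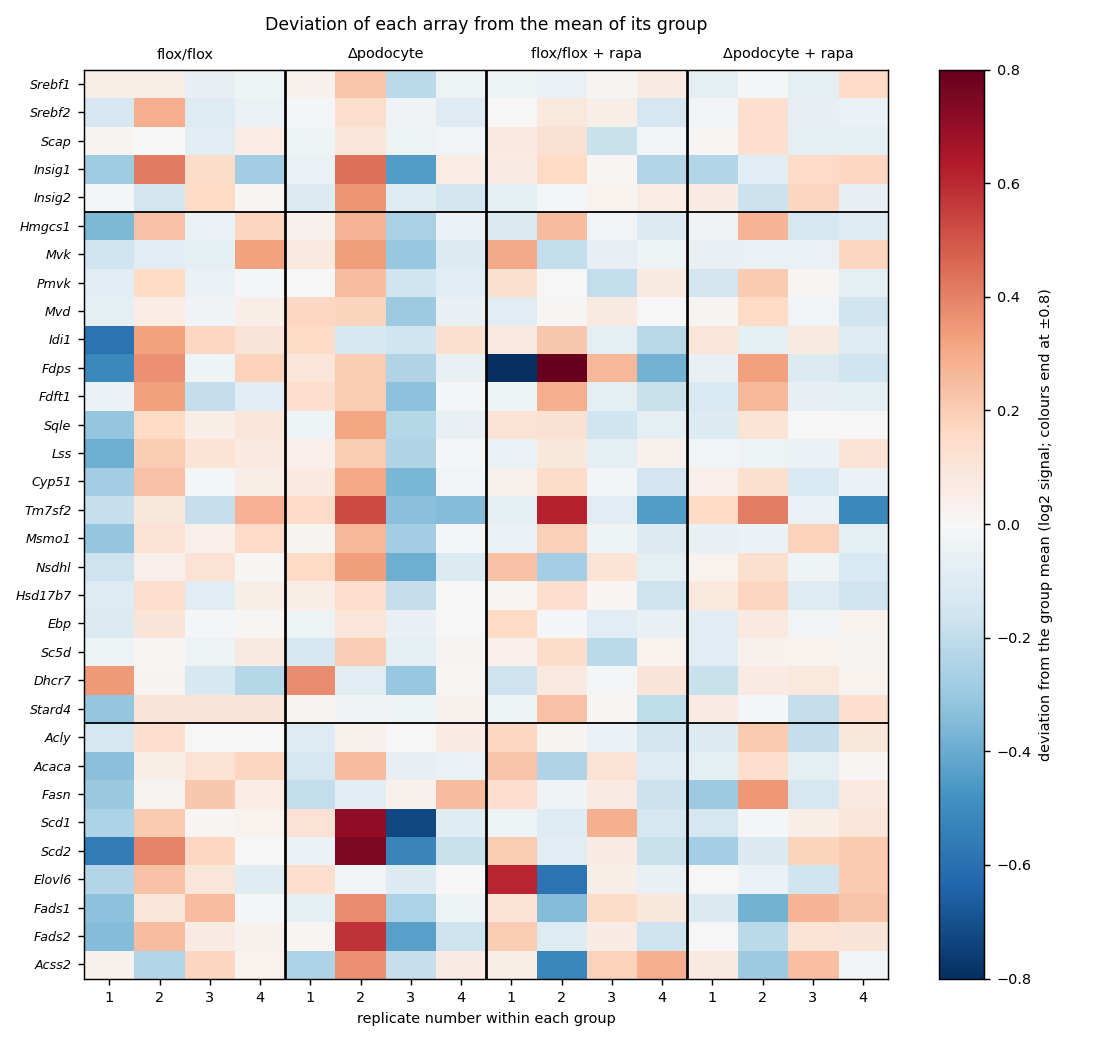
Deviation of each of 16 arrays (columns, by group and replicate number) from the mean of its own group, on the log2 scale, for the 32 measured members (rows; regulators on top, then the sterol arm, then the fatty acid arm). Red is above and blue below the group mean. Untreated Tsc2Δpodocyte replicate 2 is red in most rows, and replicate 3 and Tsc2flox/flox replicate 1 are blue in most.

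Genes around these routes were counted in 6 further lists, to be read against 10.3% of all genes that rose and 9.2% that fell untreated, and 6.2% and 4.97% with rapamycin. Counts of 1 or 2 in these lists are near those shares. Of 19 genes of SREBP processing and turnover 4 rose and 3 fell untreated (median -0.04), and 1 rose and 1 fell with rapamycin. Rnf139, a ubiquitin ligase of the endoplasmic reticulum, fell by 0.37 and by 0.33 on the log2 scale (adjusted p = 0.00913 and 0.0264), and Fbxw7, the ubiquitin ligase subunit that targets nuclear SREBPs, rose by 0.55 and by 0.50 (adjusted p = 0.0154 and 0.0363). Erlin1, an endoplasmic reticulum protein, rose by 0.46 untreated (adjusted p = 0.0134). Nfya, a subunit of the CCAAT-binding factor NF-Y, fell by 0.43 untreated (adjusted p = 0.0185) and gave -0.32 with rapamycin (adjusted p = 0.0849).

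Of 14 genes of the LXR route and sterol export 2 rose and 3 fell untreated, and 1 rose and 1 fell with rapamycin. Lpcat3, a phospholipid acyltransferase, rose by 0.48 and by 0.45 (adjusted p = 0.00524 and 0.0134), and Abca7, a lipid transporter, rose by 0.58 untreated (adjusted p = 0.0153). Rxra, the partner receptor of LXR, fell by 0.44 untreated (adjusted p = 0.0264), and so did the LXR target Arl4c, by 0.65 (adjusted p = 0.0319). Of 17 genes of sterol uptake, storage and lysosomal release 4 rose and 1 fell untreated and 1 rose with rapamycin. The lysosomal membrane protein gene Scarb2 rose in both, by 0.89 and 0.46 (adjusted p = 0.000475 and 0.0350). Gramd1b, a carrier of cholesterol from the plasma membrane, and Nceh1, a cholesterol ester hydrolase, rose untreated by 0.81 and 0.46 (adjusted p = 0.0117 and 0.0340), and the sterol-binding Osbp fell by 0.30 (adjusted p = 0.0248).

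Among 25 other genes of fatty acid and lipid synthesis 7 rose and 0 fell untreated (median 0.12), and 5 rose and 1 fell with rapamycin (median 0.20). Me1, the malic enzyme that supplies NADPH, rose by 0.80 and 0.48 (adjusted p = 0.000999 and 0.0313), Slc25a1, the mitochondrial citrate carrier, by 0.60 and 0.48 (adjusted p = 0.00694 and 0.0339), and Pcyt2 of phosphatidylethanolamine synthesis by 0.44 and 0.78 (adjusted p = 0.00725 and 0.000759). Acacb, the mitochondrial acetyl-CoA carboxylase, rose by 1.01 untreated (adjusted p = 0.0155) and gave 0.46 with rapamycin (adjusted p = 0.282). Of 22 genes of fatty acid oxidation 5 rose and 0 fell untreated (median 0.08), and 1 rose with rapamycin. The largest named rise there was that of the coactivator gene Ppargc1a, 0.68 untreated (adjusted p = 0.0309), while Hadhb, Acadvl and Acadm of the oxidation spiral rose by 0.40, 0.35 and 0.36 (adjusted p = 0.00751, 0.0176 and 0.0210). Of 15 genes of the branches that leave the mevalonate route 1 rose untreated and 2 with rapamycin.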

How the data were processed

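RNA of 16 samples was hybridised to one-colour Agilent mouse arrays. Per the file headers, the authors' scanner images were read by Agilent Feature Extraction 10.7.3.1, whose intensity per spot, net of background, was deposited unlogged. A second deposited table holds the authors' log2 values, centred per probe, and served as an alternative. Here control spots were dropped, repeated spots averaged, and log2 intensity minus the array's 75th percentile compared in limma 3.58.1 (R 4.3.3) with 4 group means over 16 arrays. A probe was tested if it was well above background throughout 1 group or more, which left 27579, and p-values were Benjamini-Hochberg adjusted. The methods name no test for the arrays. A gene is read from its brightest tested probe. Spots well above background numbered 28696 to 32918 per array, and the number of arrays limits the precision. Untreated and treated samples lay on separate slides, with the genotypes in separate rows, so that genotype cannot be told apart from row. Members called at a fold of 1.5 and the regulators are given array by array, and up to 4 genes of each other list by smallest untreated p. Members and lists were chosen with earlier results of these data known, and some genes of these pathways are not reported here. Alternatives were other normalization, background correction, filters, probes, samples, priors and tests, the deposited values, the replicate number as a block and each array left out.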

Additional observations from a re-analysis of the deposited data

Results flagged for a closer look

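Each member was checked in each group of 4 arrays for an array whose gap to the nearest other array, divided by the range of the group, passes Dixon's 95% critical value for 4 samples. Of 128 such checks 9 passed, where chance at about 1 in 20 gives 6.4, so the number is near that of chance. In treated Tsc2Δpodocyte podocytes there were 5. Mvk read 3.85 on replicate 4 and 3.62 on each other array (ratio 0.962). Sc5d read 2.22 on replicate 1 and 2.32 to 2.34 on the others (0.900). Msmo1 read 4.85 on replicate 3 and 4.59 to 4.62 on the others (0.893). Fdft1 read 3.28 on replicate 2 and 2.89 to 2.94 on the others (0.855), and Lss 1.92 on replicate 4 and 1.76 to 1.78 on the others (0.852). On untreated Tsc2Δpodocyte replicate 2, Insig2 read 3.51 and 3.01 to 3.06 on the others (0.908), and Scap 3.0 and 2.86 to 2.88 on the others (0.853). On untreated Tsc2flox/flox replicate 1, Stard4 read 0.03 and 0.44 on each of the others (0.993). On treated Tsc2flox/flox replicate 2, Fads1 read 1.73 and 2.17 to 2.23 on the others (0.883).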

How the results depend on the processing

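No alternative made a member fall in either genotype comparison, and none made one pass in the interaction. Of 15 members that rose untreated, 9 rose when only the 8 arrays compared were fitted, 4 of them in the sterol arm, and 6 under the methods' t-test (3 sterol, 1 fatty acid). Under that t-test Idi1, Sqle, Lss, Cyp51, Msmo1, Nsdhl, Scd1, Scd2 and Fads2 did not pass untreated, at adjusted p between 0.0506 and 0.171. With rapamycin, no filter on dim probes left 11 of 17 and 9 sterol genes. In that comparison the count of 1 fatty acid gene was 3 under normexp background correction, and 2 with only the 8 arrays compared, with a trended and robust prior, with the dimmest probe and with the mean of a gene's probes. Within Tsc2flox/flox, normexp gave 1 riser (sterol arm) and 1 faller (fatty acid arm) with rapamycin. The riser within Tsc2Δpodocyte became 0 under quantile normalization, normexp and no filter. At a fold of at least 1.2 the called members were 15 untreated (9 sterol) and 17 with rapamycin (15 sterol). At a fold of at least 2 they were 3 untreated, 0 sterol and 2 fatty acid, and 2 with rapamycin, 0 sterol. The untreated log2 fold change of Srebf1 was -0.01 under quantile normalization and -0.03 under normexp, and that of Scap with rapamycin -0.05 under normexp. Under normexp the interaction was -0.14 for Srebf2, -0.10 for Insig1, -0.07 for Sqle, -0.21 for Scd2 and 0.01 for Fads2. For Msmo1 it was -0.06 with the dimmest probe and -0.03 with the mean of its probes. Fewer arrays in a fit, or more probes in the adjustment, are the makeup of these alternatives. For the rest the cause was not tested.

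Leaving out each array in turn gave 12 to 19 risers untreated (6 to 12 sterol, 4 to 5 fatty acid) and 11 to 17 with rapamycin (9 to 15 sterol, 1 to 2 fatty acid). The lowest with rapamycin came without treated Tsc2flox/flox replicate 4, and the count of 2 fatty acid genes without treated Tsc2Δpodocyte replicate 3 or Tsc2flox/flox replicate 1. Within Tsc2Δpodocyte the riser count was 0 to 0 and the faller count 0 to 1 (fatty acid arm 0 to 1). Within Tsc2flox/flox the faller count was 0 to 1 (fatty acid arm 0 to 1). The untreated value of Srebf1 ranged from -0.07 to 0.08. The interaction ranged from -0.72 to -0.24 for Scd1, from -0.17 to 0.26 for Scd2, from -0.05 to 0.24 for Insig1 and from -0.08 to 0.11 for Msmo1.

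Replicate numbers are shared by the groups. Deviations of same-numbered arrays correlated between -0.33 and 0.46 over all tested probes. They were not set against those of different-numbered arrays, so whether the numbers pair the samples was not determined. With the replicate number as a block 16 members rose untreated (10 sterol) and 18 with rapamycin (15 sterol).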
